A study of Mus musculus with 2 samples.

Results

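Levels were measured for 10 genes of the stromal matrix in adult mouse ovary: the proteoglycan genes Dcn, Lum, Ogn and Bgn, the matricellular and mineral-binding genes Sparc, Mgp and Postn, and the elastic fibre genes Fbln1, Loxl1 and Eln. The genes were listed by symbol and found by their Ensembl identifiers, and all 10 had a row among the 43346 mouse gene rows of each library. The study holds 2 polyA RNA libraries, replicate 2 and replicate 1, and both are whole ovary from adult females of the strain C57BL/6J, 8 weeks of age and littermates. No allele, treatment or sorted cell type is named for either library, so there is 1 group and no control. The labels call the libraries biological replicates but cite the same donor record for both, so the spread between them may be technical and every test below compares the reads of these 2 libraries only.

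Small leucine-rich proteoglycans are secreted core proteins, many with chondroitin, dermatan or keratan sulfate chains, that bind collagen fibrils and growth factors of the TGF-beta family. Matricellular proteins sit in the matrix but act mainly on cells and growth factors rather than as its scaffold, and elastic fibres are elastin cross-linked by lysyl oxidases on a microfibril scaffold with fibulins. In the ovary this matrix lies in the stroma, the theca and the vessel walls, and it is remodelled as follicles grow and rupture.

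The gene counts came to 34930872 for replicate 2 and 41124064 for replicate 1. Spike-in RNAs took 0.986% of the counts in replicate 2 (0.983% to 0.989%, 95% Wilson interval), against 0.764% in replicate 1 (0.762% to 0.767%). Such intervals, and each SE given below, cover only counting error. The tissue label was checked against its markers: all 8 granulosa and theca markers and all 7 oocyte markers reached 1 TPM in both libraries. TPM is a level per effective length, scaled to the same total in each library. Inha, the inhibin alpha subunit of granulosa cells, had 6279 TPM in replicate 2 and 7396 in replicate 1, and Zp3, an egg coat protein, had 151 and 186. All 6 oviduct epithelium markers reached 1 TPM as well, among them Ovgp1, the secreted oviduct glycoprotein, at 528 TPM in replicate 2 and 627 in replicate 1.

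As a group the 10 genes were abundant. Their median level was 201.7 TPM in replicate 2 and 227.9 TPM in replicate 1, and their summed level was 6112 and 7287 TPM. The median of their mean levels was 214.8 TPM, against 17.8 TPM over the 13312 protein-coding genes that reached 1 TPM in both libraries and 4.45 TPM over all 21474 protein-coding genes. Sparc, with a mean of 3836 ± 768 TPM (SD, n = 2), ranked 14 among those 13312 genes, and Mgp, with 1580 ± 62.2 TPM, ranked 61. Bgn at 362 ± 103, Fbln1 at 347 ± 31.8, Dcn at 255 ± 64.6 and Loxl1 at 174 ± 27.6 TPM formed a middle group. Lum at 60.4 ± 15.5, Eln at 44.9 ± 1.67, Postn at 22.9 ± 3.44 and Ogn at 15.4 ± 3.98 TPM were the lowest. By its mean, Ogn stood above 46.6% of the detected protein-coding genes and below their median of 17.8 TPM. From Sparc to Ogn the mean levels spanned 249-fold. The libraries' values overlapped between neighbours in this order for 1 pair: Bgn was 0.784 times Fbln1 in replicate 2 and 1.34 times Fbln1 in replicate 1. By mean and SD, Fbln1 and Dcn, Dcn and Loxl1, and Lum and Eln did not separate either. The level and rank of Sparc rest mostly on a pair of short transcript models, described below. With all counts of a gene set on its longest coding transcript, Sparc averaged 1216 TPM, below Mgp at 1580 TPM. Under that rule, chosen after seeing the data, Fbln1 averaged 218.5 TPM, below Dcn at 250 TPM. In whole tissue, fewer cells of a type and less RNA per cell cannot be told apart.

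**Figure D1:**
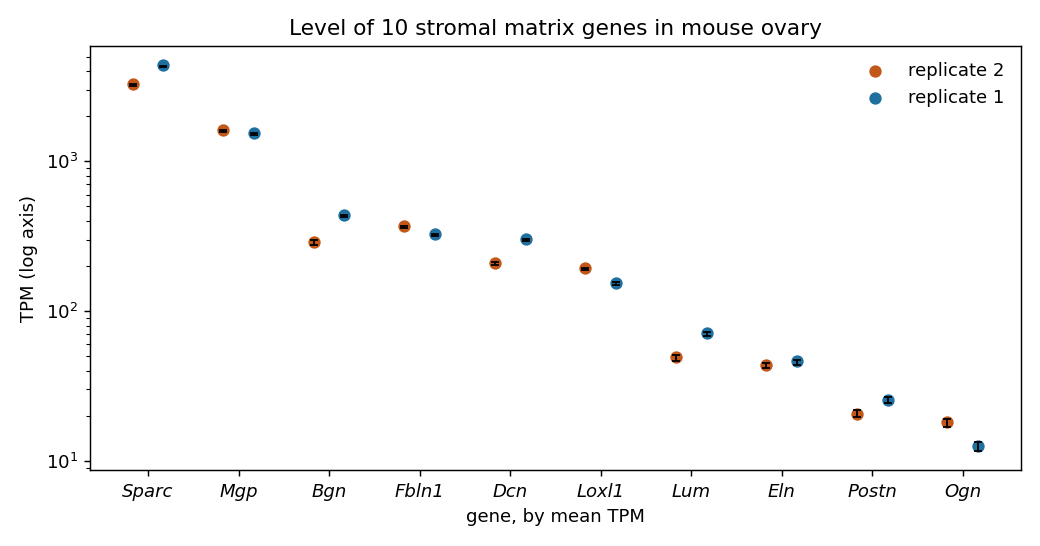
TPM of the 10 genes (log axis, genes ordered by mean level) in replicate 2 (orange, left) and replicate 1 (blue, right), with black bars for the authors' deposited credibility bounds around the posterior mean, whose level is not stated. Sparc and Mgp stand at 1536 TPM or more in both libraries, and Bgn and Fbln1 change places between the libraries.

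Between the libraries, 9 of the 10 genes passed the test, 4 higher and 5 lower in replicate 2. None differed by 2-fold or more on counts scaled by the trimmed mean of M-values (TMM). The test was a two-sided exact binomial test of each gene's 2 rounded expected counts against the scaled library sizes, adjusted by Benjamini-Hochberg over the 15939 genes whose mean count reached 20. It called 56.1% of those genes, 29.1% higher and 27.0% lower in replicate 2. Among the 7055 genes counted at least as deeply as the lowest of the 10, it called 74.0%. A count of 9 in 10 is therefore close to what genes of this depth gave, and it is not a result about these genes. The median log2 ratio of replicate 2 over replicate 1 was -0.13 for the 10 genes and -0.01 for all tested genes, and the median size of the ratio was 0.31 and 0.23.

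**Figure D2:**
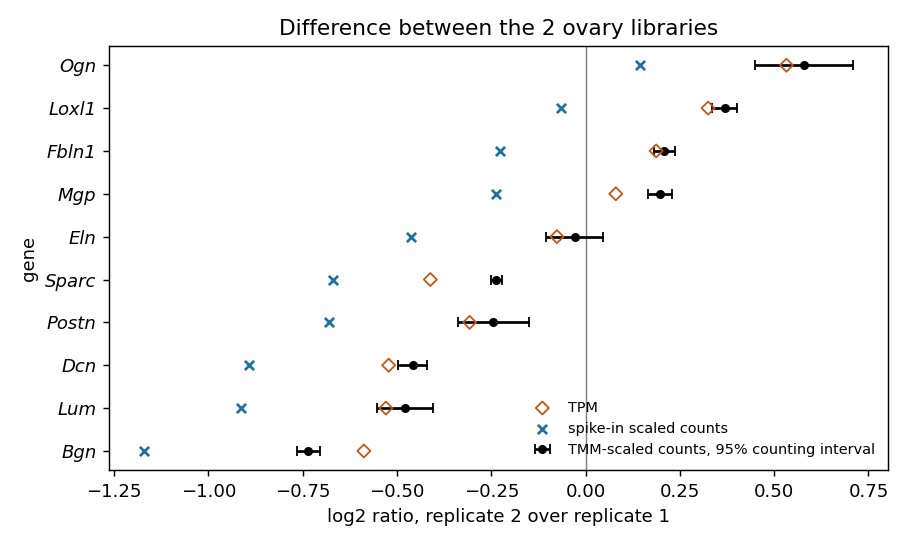
Log2 ratio of replicate 2 over replicate 1 for each gene: counts scaled by the trimmed mean of M-values (TMM, black, with 95% counting intervals), TPM (open diamonds) and counts scaled by the spike-ins (crosses). Ogn lies highest at 0.58 and Bgn lowest at -0.73 on TMM-scaled counts, and with spike-in scaling Mgp, Fbln1 and Loxl1 pass to the other side of 0.

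Scaling decided some directions. Scaled by the spike-in total, the median of all tested genes was -0.44 on the log2 scale, with 1142 genes higher and 11431 lower in replicate 2, against 4646 higher and 4301 lower with TMM. Every ratio was then lower by 0.43, so a gene with a smaller positive ratio changed sign. Mgp (-0.24), Fbln1 (-0.23) and Loxl1 (-0.066) were below 0, so 1 of the 10 was higher and 9 were lower, and all 3 lay above the shifted median. Bgn, at -1.17 with spike-in scaling, then differed by more than 2-fold. Scaled by total gene count, 3761 genes were higher and 5515 lower, and of the 10 genes 4 were higher and 6 lower. Directions below refer to TMM scaling.

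Among the proteoglycan genes, Dcn, Lum and Bgn were lower in replicate 2, Bgn by the most, and Ogn was higher. Dcn encodes decorin, which binds collagen fibrils and TGF-beta and carries a single chondroitin or dermatan sulfate chain, and it lies at chr10:97479609-97518143 on the plus strand (mm10). Dcn had 209.7 TPM (8532 counts) in replicate 2 and 301.1 TPM (14427 counts) in replicate 1. Dcn was lower in replicate 2, with a log2 ratio of -0.46 (SE 0.020, exact binomial test, adjusted p = 5.5e-121).

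Lum encodes lumican, a keratan sulfate proteoglycan that regulates fibril diameter, and starts 46984 bases after the end of Dcn, at chr10:97565128-97572703 on the plus strand. Lum had 49.5 TPM in replicate 2 and 71.4 TPM in replicate 1. Its log2 ratio of -0.48 (SE 0.038, exact binomial test, adjusted p = 5.9e-36) differed from that of Dcn by 0.02 (SE 0.043). Dcn thus stood at 4.24 times Lum in replicate 2 and 4.22 times Lum in replicate 1.

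Bgn encodes biglycan, the close relative of decorin with a pair of glycosaminoglycan chains, and lies at chrX:73483602-73495933 on the plus strand. Bgn had 289.7 TPM (13469 counts) in replicate 2 and 435.3 TPM (27581 counts) in replicate 1. Its log2 ratio of -0.73 (SE 0.015) was the largest of the 10 in size, and 95.04% of the 7055 genes above had a smaller one. On TPM the log2 ratio was -0.59.

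Ogn encodes osteoglycin, also called mimecan, and lies at chr13:49608046-49624501 on the plus strand. Ogn had 18.2 TPM (1047 counts) in replicate 2 and 12.6 TPM (862 counts) in replicate 1. It was higher in replicate 2, with a log2 ratio of 0.58 (SE 0.066, exact binomial test, adjusted p = 1.6e-17), so Dcn was 11.5 times Ogn in replicate 2 and 23.9 times Ogn in replicate 1. Ogn overlaps Cenpp, a centromere protein gene on the other strand, which had 15 counts in replicate 2 and 11 in replicate 1.

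The neighbours of these genes had few counts or none, Ecm2 the most. Epyc, the epiphycan gene of cartilage, lies beyond Lum on chromosome 10 and had 0 counts in each library. A count of 0 allows up to 3 counts, or 0.0859 CPM (counts scaled to the library total) in replicate 2 and 0.0729 CPM in replicate 1. Kera, the keratocan gene of the cornea, lies between Lum and Epyc and had 1 count in replicate 2 and 0 in replicate 1. Beside Ogn on chromosome 13, Aspn (asporin) had 31 counts in replicate 2 and 38 in replicate 1, and Omd (osteomodulin) had 16 and 17. Ecm2, the next gene of that group, had 1.60 TPM in replicate 2 and 2.40 TPM in replicate 1 and was lower (log2 ratio -0.54, exact binomial test, adjusted p = 0.0012).

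Over the other 13 genes of the proteoglycan family, 9 reached 1 TPM in both libraries, and the median level over all 13 was 2.59 TPM. Of the 10 with enough counts to test, 2 were higher, 5 lower and 3 passed in neither direction, with a median log2 ratio of -0.27; with spike-in scaling 2 were higher and 7 lower. The highest mean was that of Podnl1, podocan-like 1, with 56.7 TPM in replicate 2 and 16.9 in replicate 1. In replicate 1 other genes of the list lay above it, Tsku and Prelp among them. Podnl1 was higher in replicate 2, by 1.77 on the log2 scale (SE 0.050). Tsku, the secreted signalling inhibitor tsukushi, had 26.6 TPM in replicate 2 and 31.3 in replicate 1 and was lower (-0.19). Prelp, which anchors basement membranes to collagen, had 18.4 TPM in replicate 2 and 29.1 in replicate 1 and was lower (-0.63).

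**Figure D3:**
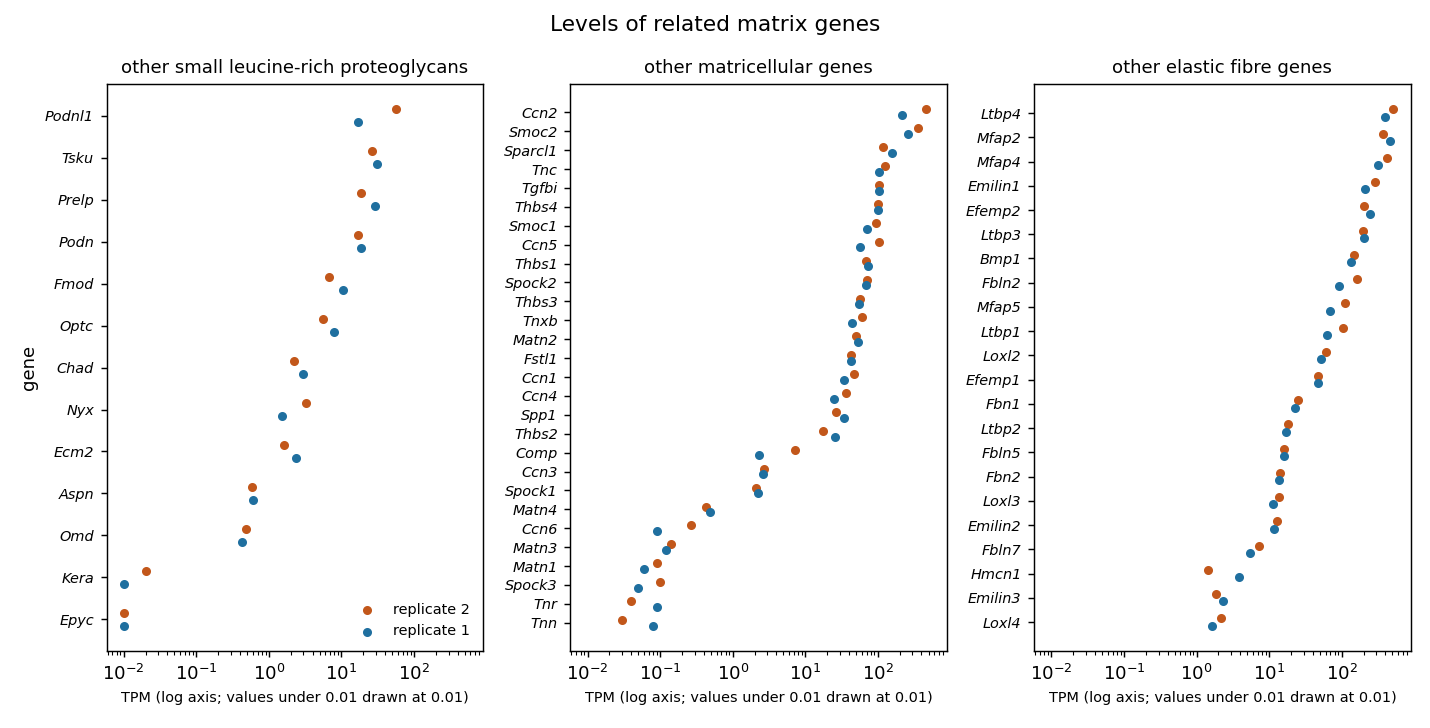
TPM (log axis, values under 0.01 drawn at 0.01) of the other small leucine-rich proteoglycan genes, the other matricellular genes and the other elastic fibre genes in replicate 2 (orange, upper point of each gene) and replicate 1 (blue, lower point). Podnl1 and Ccn2 show wide gaps between the libraries, and Epyc and Kera lie at or near the floor.

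The transcripts assigned to Dcn and Bgn also differed between the libraries. Both Dcn transcripts encode the same 354 codons and share 7 exons, and they differ in a noncoding first exon, the starts lying 2758 bases apart in GENCODE M21. Dcn-201, from the upstream start, took 72.35% of the gene's TPM in replicate 2 and 59.67% in replicate 1. Dcn-202 took 27.65% in replicate 2 and 40.33% in replicate 1. Dcn-201 had 151.7 TPM in replicate 2 and 179.7 TPM in replicate 1, while Dcn-202 had 57.97 and 121.4 TPM. Most of the difference in level was thus assigned to Dcn-202. The models counted had 1886 bases for Dcn-201 and 1794 for Dcn-202, against 1758 for each in M21. The share of Dcn-201 was higher in replicate 2 (Fisher's exact test on rounded expected counts, adjusted p = 1.0e-81).

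Bgn-201, the full coding form of 369 codons, took 81.46% of the gene's TPM in replicate 2 and 96.30% in replicate 1. Bgn-208, a spliced noncoding model of 548 bases, took 15.5% in replicate 2 and 0.94% in replicate 1, with 378.48 estimated counts in replicate 2 and 38.59 in replicate 1. Its posterior SD was 42.64 counts in replicate 2 and 13.19 in replicate 1. Bgn-208 lies wholly within the last exon of Bgn-201, after the coding end, and its own intron of 487 bases is exonic in Bgn-201. Its share of counts was higher in replicate 2 (Fisher's exact test, adjusted p = 7.6e-135). Set on Bgn-201 alone, an alternative chosen after seeing the data, the level of Bgn was 248 TPM in replicate 2 and 426 TPM in replicate 1.

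Across the 5 genes with several transcripts, the Fisher test called 12 of 21 transcripts tested, 7 with a higher and 5 with a lower share in replicate 2. It called 43.5% of 42656 transcripts over all genes, a share not matched for depth. In Dcn and Fbln1 a pair of transcripts held all the counts, so each pair is the same test entered as higher and lower. The count of 12 is not a result about these genes. The test takes the estimated counts as given, so the uncertainty of assigning reads to transcripts is not in it. The leading transcript was the same in both libraries in all 10 genes. Lum, Ogn, Mgp, Loxl1 and Eln had 1 transcript each in the deposited tables.

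**Figure D4:**
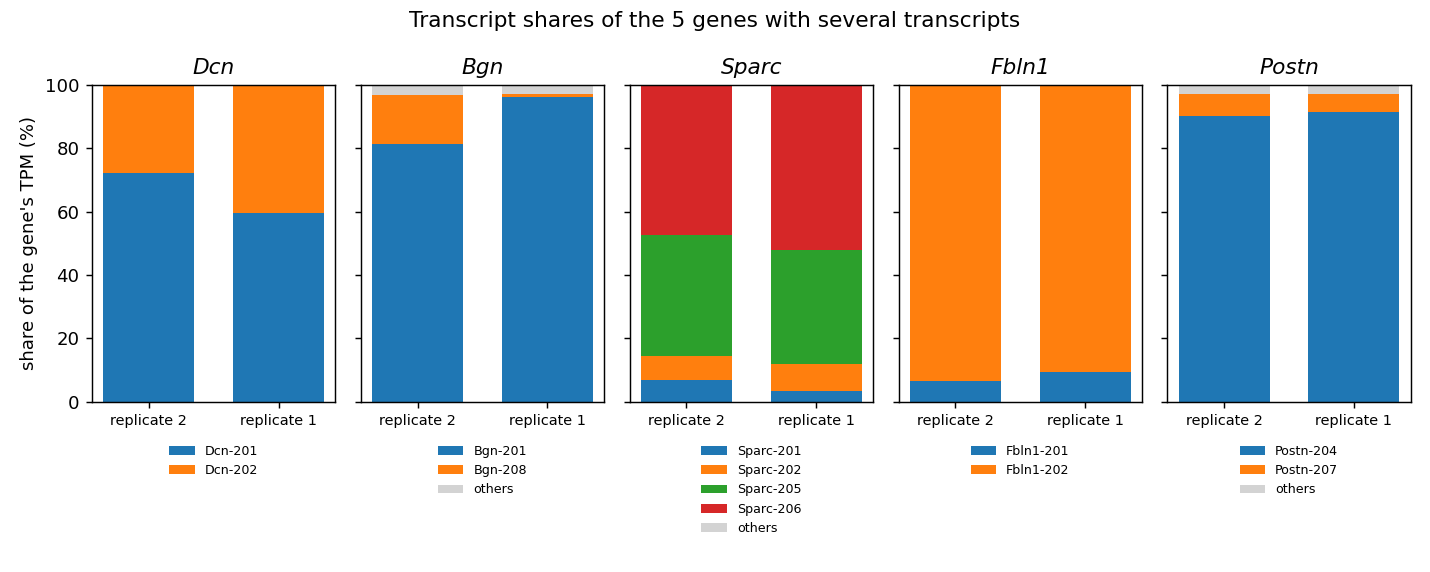
Share of each gene's TPM (percent, stacked bars) taken by its transcripts in replicate 2 (left bar) and replicate 1 (right bar) for the 5 genes with several transcripts, with transcripts averaging under 5% joined as others. Bgn-208 fills 15.5% of the Bgn bar in replicate 2 and 0.94% in replicate 1, and short models fill most of both Sparc bars.

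Sparc encodes osteonectin, a collagen- and calcium-binding matricellular protein, and lies at chr11:55394500-55423183 on the minus strand. Sparc had 3293 TPM (56461 counts) in replicate 2 and 4380 TPM (81823 counts) in replicate 1. It was lower in replicate 2, with a log2 ratio of -0.24 (SE 0.0079, exact binomial test, adjusted p = 1.8e-196). Of genes of at least the depth of the lowest of the 10, 60.5% had a log2 ratio smaller in size.

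Most of the Sparc level came from a pair of short models. Sparc-206, an incomplete coding model of 640 bases, took 47.22% of the gene's TPM in replicate 2 and 51.90% in replicate 1. GENCODE M21 tags Sparc-206 as not organism supported. Sparc-205, a retained intron model of 741 bases, took 38.36% in replicate 2 and 36.08% in replicate 1. Sparc-202 took 7.58% and 8.46%, and Sparc-201, the full form of 302 codons, took 6.74% in replicate 2 and 3.51% in replicate 1. By Fisher's exact test on counts the share of Sparc-201 was higher in replicate 2, those of Sparc-202 (adjusted p = 5.6e-84) and Sparc-206 (3.1e-66) were lower, and that of Sparc-205 did not pass (0.67). Sparc-205 and Sparc-206 together cover 900 of the 906 coding bases of Sparc-201 but 68 of the 1088 bases after its coding part. Sparc-206 has no base outside Sparc-201, and Sparc-205 has 94, all from the intron before its first shared exon.

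**Figure D5:**
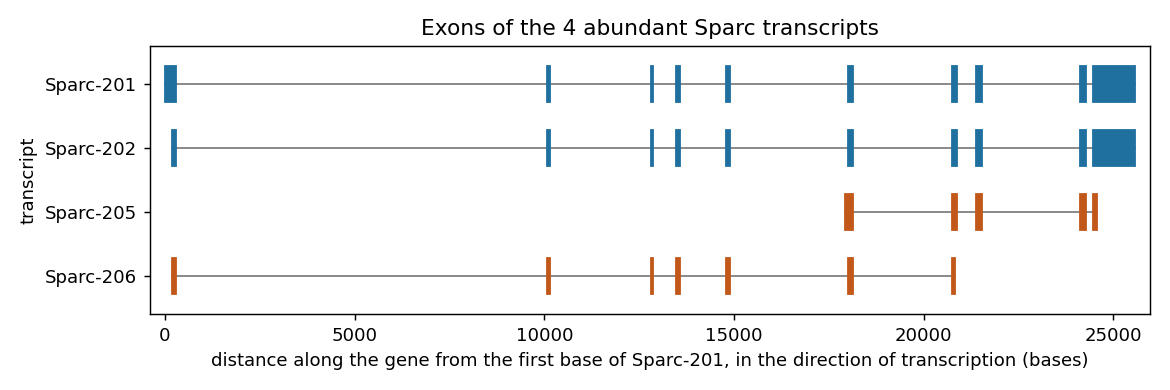
Exons (boxes) of the 4 abundant Sparc transcripts along the gene, in bases from the first base of Sparc-201 in the direction of transcription, with the full-length forms in blue and the short models in orange. Sparc-206 covers the first part of the gene and Sparc-205 the later part, both leaving out most of the long last exon.

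With all counts of a gene set on its longest coding transcript, an alternative chosen after seeing the data, Sparc had 1097 TPM in replicate 2 and 1336 in replicate 1 (mean 1216 ± 169, SD, n = 2). The deposited level was 3.003 times that in replicate 2 and 3.28 times in replicate 1, and Mgp, at 1580 TPM, then stood above Sparc. The stretches where exon 3 begins and where Sparc-205 begins are printed here in the direction of transcription, since they hold letters that differ between forms; the forms also differ in where they start and end. In these models exon 3 begins at 3 sites, with 60, 57 or 54 bases in Sparc-201, Sparc-202 and Sparc-206. Reads across these junctions were not examined. The capitals mark the bases of exon 3 that the shortest form lacks (18 bases of exon 2 come first). In Sparc-205, at chr11:55402072-55402165, the capitals mark the 94 intronic bases that it holds, the last of that intron. The lower case marks the first 20 bases of the exon after them.
Sparc-201 exon 2 to exon 3: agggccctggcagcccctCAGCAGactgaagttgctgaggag
Sparc-202 exon 2 to exon 3: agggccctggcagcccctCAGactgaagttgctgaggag
Sparc-206 exon 2 to exon 3: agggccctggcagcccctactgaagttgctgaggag
Sparc-205 start: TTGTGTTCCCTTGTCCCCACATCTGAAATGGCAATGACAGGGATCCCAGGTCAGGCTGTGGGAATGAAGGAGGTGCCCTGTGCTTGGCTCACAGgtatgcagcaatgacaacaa

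Mgp encodes matrix Gla protein, an inhibitor of calcification that must be gamma-carboxylated to act, and lies at chr6:136872435-136875823 on the minus strand with 104 codons in the 1 transcript counted, of 598 bases. Mgp had 1624 TPM (15687 counts) in replicate 2 and 1536 TPM (16826 counts) in replicate 1. The log2 ratio was 0.20 on scaled counts (SE 0.016, exact binomial test, adjusted p = 6.1e-34) and 0.08 on TPM. Sparc was 2.03 times Mgp in replicate 2 and 2.85 times Mgp in replicate 1.

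Of the 3 genes for gamma-carboxylation, 1 was lower and 2 passed in neither direction, with a median log2 ratio of -0.10; with spike-in scaling all 3 were lower. Vkorc1, which recycles vitamin K, had 231.8 TPM in replicate 2 and 347.2 in replicate 1 and was lower (-0.48, exact binomial test, adjusted p = 1.9e-48). Ggcx, the carboxylase, had 22.6 TPM in replicate 2 and 24.5 in replicate 1, with a log2 ratio of -0.06 (adjusted p = 0.29, exact binomial test). Vkorc1l1, a paralog of Vkorc1, had 11.1 and 12.1 TPM. Markers of cartilage and bone, tissues where Mgp is also made, were low: 3 of 7 reached 1 TPM in both libraries, with summed levels of 67.8 TPM in replicate 2 and 52.8 in replicate 1. Most of that was Alpl, alkaline phosphatase, at 52.1 and 38.1 TPM, followed by Sox9, a transcription factor also of other tissues, at 12.8 and 12.4 TPM. Sp7 had 2.15 TPM in replicate 2 and 1.57 in replicate 1, and Acan had 0.79 and 0.43 TPM. Col2a1 had 2 counts in replicate 2 and 9 in replicate 1. Bglap (osteocalcin) and Ibsp (bone sialoprotein) had 0 counts in replicate 2 and 1 in replicate 1. Of the 4 cartilage and bone markers tested, 3 were higher and 0 lower, whereas with spike-in scaling 1 was higher and 1 lower.

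Postn encodes periostin, a matricellular protein that binds integrins and collagen, and lies at chr3:54361109-54391037 on the plus strand. Postn had 20.5 TPM (1509 counts) in replicate 2 and 25.4 TPM (2200 counts) in replicate 1. It was lower in replicate 2, with a log2 ratio of -0.24 (SE 0.048, exact binomial test, adjusted p = 1.3e-06).

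Periostin is known to vary by splicing near its carboxyl end, and the coding forms differ by a pair of cassette exons there. Exon 17, of 81 bases, at chr3:54380412-54380492, is in Postn-202 and Postn-203, and exon 21, of 84 bases, at chr3:54385671-54385754, is in Postn-201 and Postn-202. Exons are numbered as in Postn-202, and both lengths are multiples of 3. The capitals below mark the cassette exon and the lower case 15 bases of each neighbouring exon, since these letters separate the forms.
Postn exon 17: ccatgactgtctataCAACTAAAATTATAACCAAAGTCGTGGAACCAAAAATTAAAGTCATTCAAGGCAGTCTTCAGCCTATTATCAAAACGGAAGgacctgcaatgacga
Postn exon 21: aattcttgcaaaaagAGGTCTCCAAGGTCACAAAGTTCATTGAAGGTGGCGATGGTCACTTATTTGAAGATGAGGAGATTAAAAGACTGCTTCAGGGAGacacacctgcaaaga
The form that lacks both exons, Postn-204 with 783 codons, took 90.25% of the gene's TPM in replicate 2 and 91.38% in replicate 1. Postn-203, with exon 17, had 34.03 estimated counts in replicate 2 and 31.94 in replicate 1. Postn-201 and Postn-202, which carry exon 21, were listed at 0 counts in both libraries, with posterior mean counts of 27.85 in replicate 2 and 21.84 in replicate 1 for Postn-201, and of 13.00 and 7.99 for Postn-202. Postn-207, a retained intron model, took 7.02% in replicate 2 and 5.84% in replicate 1. The shares of Postn-204 (adjusted p = 0.077), Postn-203 (0.15) and Postn-207 (0.20) did not pass Fisher's exact test.

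Among the other 28 matricellular genes, 21 reached 1 TPM in both libraries, and the median level over all 28 was 41.7 TPM. Of the 22 tested, 13 were higher, 5 lower and 4 passed in neither direction, with a median log2 ratio of 0.09, whereas with spike-in scaling 6 were higher and 12 lower. Ccn2, connective tissue growth factor, had 465.9 TPM in replicate 2 and 216.6 in replicate 1 and was higher by 1.06 on the log2 scale (SE 0.018). Smoc2, a calcium-binding relative of Sparc, had 356.4 TPM in replicate 2 and 256.9 in replicate 1 and was higher (0.52). Sparcl1, or hevin, the closest paralog of Sparc, had 116 TPM in replicate 2 and 159 in replicate 1 and was lower (-0.41), as Sparc was.

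Of 15 receptor genes for these proteins, 7 were higher, 4 lower and 4 passed in neither direction (median log2 ratio 0.08), and with spike-in scaling 0 were higher and 12 lower. Lrp1, an endocytic receptor that takes up decorin, had 274.7 TPM in replicate 2 and 292.0 in replicate 1 and was lower by a small amount (-0.04, exact binomial test, adjusted p = 5.8e-05). Itgav, the integrin alpha V subunit bound by periostin, had 307.8 TPM in replicate 2 and 239.3 in replicate 1 (log2 ratio 0.31). Its partner Itgb5 had 199 TPM in replicate 2 and 191 in replicate 1 (0.10). Itgav had fewer counts than Itgb5, 5046 in replicate 2 and 4999 in replicate 1 against 14107 and 16155. The transcript models behind these levels were not examined.

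Of the elastic fibre genes, Fbln1 and Loxl1 were higher in replicate 2 and Eln passed in neither direction, whereas with spike-in scaling all 3 were lower. Fbln1 encodes fibulin-1, which binds fibronectin, laminin and elastin, and lies at chr15:85205949-85286535 on the plus strand. Fbln1 had 369.7 TPM (19618 counts) in replicate 2 and 324.7 TPM (20885 counts) in replicate 1. It was higher in replicate 2, with a log2 ratio of 0.21 (SE 0.014, exact binomial test, adjusted p = 1.1e-46).

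Fibulin-1 is known in forms that differ at the carboxyl end, and the 2 abundant transcripts part after 14 shared exons. Fbln1-202 has 15 exons and 685 codons and Fbln1-201 has 17 exons and 705 codons, with 352 and 412 coding bases of their own. The last 20 shared bases are in lower case below and the first 100 bases of each form's own coding part in capitals, at chr15:85251445-85251544 and from chr15:85263259, to show where the forms diverge.
Fbln1-202 after the shared exons: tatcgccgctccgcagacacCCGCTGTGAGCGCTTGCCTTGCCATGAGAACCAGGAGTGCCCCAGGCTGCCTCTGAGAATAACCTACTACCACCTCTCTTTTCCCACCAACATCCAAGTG
Fbln1-201 after the shared exons: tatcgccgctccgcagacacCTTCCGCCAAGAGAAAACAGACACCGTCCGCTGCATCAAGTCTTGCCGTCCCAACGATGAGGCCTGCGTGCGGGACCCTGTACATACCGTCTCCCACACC
Fbln1-202 took 93.44% of the gene's TPM in replicate 2 and 90.55% in replicate 1. Fbln1-201 took 6.56% in replicate 2 and 9.45% in replicate 1. By Fisher's exact test on counts the share of Fbln1-202 was higher in replicate 2 (adjusted p = 6.7e-39). With all counts on the longer Fbln1-201 the mean level was 218.5 ± 17.8 TPM (SD, n = 2), below that of Dcn at 250 ± 62.1 TPM under the same rule.

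Loxl1 encodes a lysyl oxidase that cross-links elastin, and lies at chr9:58287738-58313186 on the minus strand. Loxl1 had 193.8 TPM (14923 counts) in replicate 2 and 154.7 TPM (14222 counts) in replicate 1. It was higher in replicate 2, with a log2 ratio of 0.37 (SE 0.017, exact binomial test, adjusted p = 1.0e-103). Loxl1 has the highest GC content of the 10, 61.0%, and with the median ratio of genes of like GC content removed its log2 ratio was 0.11.

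Eln encodes tropoelastin, the substrate of Loxl1, and lies at chr5:134702593-134747323 on the minus strand. Eln had 43.8 TPM (2557 counts) in replicate 2 and 46.1 TPM (3210 counts) in replicate 1. Its log2 ratio of -0.03 did not pass (SE 0.038, exact binomial test, adjusted p = 0.55), with a 95% counting interval of -0.10 to 0.05. With the median ratio of genes of like GC content removed it was -0.12, outside that interval. Loxl1 was 4.43 times Eln in replicate 2 and 3.36 times Eln in replicate 1. With total-count scaling Eln was lower (-0.09, exact binomial test, adjusted p = 0.029), and with spike-in scaling its log2 ratio was -0.46.

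All 22 other elastic fibre genes reached 1 TPM in both libraries, with a median level of 52.1 TPM. Of these, 13 were higher, 3 lower and 6 passed in neither direction, with a median log2 ratio of 0.18, whereas with spike-in scaling 2 were higher and 14 lower. Ltbp4, which binds latent TGF-beta and is needed for elastic fibre assembly, had 516 TPM in replicate 2 and 398 in replicate 1 and was higher (0.44). Mfap4, a microfibril-associated protein, had 420 TPM in replicate 2 and 317 in replicate 1 and was higher (0.41). Mfap2, another protein of the microfibril, had 375 TPM in replicate 2 and 465 in replicate 1 and was lower (-0.23).

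The genes that build the sugar chains of decorin and biglycan, and the collagens they bind, were tested gene by gene and only counted by list. Over all tested genes 29.1% were higher and 27.0% lower with TMM. All 22 genes of chondroitin and dermatan sulfate synthesis reached 1 TPM in both libraries. Of these, 12 were higher, 3 lower and 7 passed in neither direction (median log2 ratio 0.17), whereas with spike-in scaling 3 were higher and 17 lower. Chpf, a chain-polymerising factor, had 382.7 TPM in replicate 2 and 274.8 in replicate 1 (log2 ratio 0.29, higher). Chst11, a chondroitin 4-O-sulfotransferase, had 105.7 TPM in replicate 2 and 146.5 in replicate 1 (-0.43, lower), and B3gat3, which completes the linker of the chain, had 100.6 and 94.8 TPM (0.14, higher).

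Of 9 collagen chains that these proteoglycans bind, 7 were higher, 1 lower and 1 passed in neither direction, with a median log2 ratio of 0.38, whereas with spike-in scaling 3 were higher, 5 were lower and the median was -0.05. The highest mean levels were those of Col6a1 and Col6a2, chains of type VI collagen. Col6a1 had 544 TPM in replicate 2 and 430 in replicate 1 (log2 ratio 0.38), and Col6a2 had 576 and 381 TPM (0.65). Col1a2, a chain of type I collagen, had 380 TPM in replicate 2 and 301 in replicate 1 (0.38). With TMM the collagen median lay above 0 and the ratios of Dcn, Lum and Bgn below 0, whereas that of Ogn (0.58) lay above the collagen median.

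Markers of the cell types in the tissue also differed between the libraries, and their part in the results above was not tested. All 8 fibroblast markers reached 1 TPM in both libraries, with summed levels of 582 TPM in replicate 2 and 631 in replicate 1, and 1 was higher and 4 lower (0 and 8 with spike-in scaling). The most abundant were Nr2f2 at 149 and 189 TPM and Tcf21 at 134 and 137 TPM. All 8 smooth muscle markers did so too, with summed levels of 4057 TPM in replicate 2 and 4465 in replicate 1, led by Acta2 (1983 and 2321 TPM) and Tagln (1019 and 1068 TPM), and 3 were higher and 3 lower (0 and 8 with spike-in scaling).

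Surface epithelium and adipocyte markers were mostly higher in replicate 2, and those of granulosa and theca cells and oocytes mostly lower, whereas with spike-in scaling 4 of 7 surface epithelium and 4 of 6 adipocyte markers were lower. Of 7 surface epithelium markers 6 were higher and 0 lower, with summed levels of 871 TPM in replicate 2 and 671 in replicate 1, led by the keratins Krt19 (418 and 299 TPM) and Krt8 (181 and 140 TPM). Of 6 adipocyte markers 5 were higher and 1 lower, with 4209 and 3325 TPM, led by Cfd, or adipsin, (2772 and 2081 TPM) and Car3 (904 and 783 TPM). Of 8 granulosa and theca markers 2 were higher and 6 lower, with 7565 TPM in replicate 2 and 8830 in replicate 1, led by Inha and Insl3 (585 and 687.5 TPM). Of 7 oocyte markers 0 were higher and 4 lower, with 324 and 413 TPM, led by Zp3 and Gdf9 (84.0 and 107 TPM).

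Of the other 3 marker lists, with spike-in scaling 0 markers were higher, and 5 oviduct, 6 endothelial and 6 macrophage markers were lower. Oviduct epithelium summed to 770 TPM in replicate 2 and 846 in replicate 1 (1 higher, 2 lower of 6), led by Ovgp1 and the cilia regulator Foxj1 (137 and 112 TPM). Endothelial markers summed to 464 TPM in replicate 2 and 530 in replicate 1 (1 higher, 3 lower of 6), led by Egfl7 (301 and 365 TPM) and Tie1 (68.9 and 57.7 TPM). Macrophage markers summed to 452 TPM in replicate 2 and 522 in replicate 1 (0 higher, 3 lower of 6), led by the complement genes C1qc (176 and 189.5 TPM) and C1qb (122 and 158 TPM). No marker of these 9 lists was at 0 in both libraries.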

How the data were processed

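Each of the 2 libraries has a gene and a transcript table on mm10 with GENCODE M4 annotation, per the accompanying notes. Aligner, quantifier and any use of strand in counting were not given in the sources used here. Per the file headers, the authors deposited expected counts (estimated reads per gene or transcript), TPM per effective length, and each transcript's percent of its gene's TPM. The authors also deposited other posterior values, with an SD of the count and bounds of TPM whose level is not stated. The mm9 tables of the series were not used here.

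Names and coordinates came from GENCODE M21 on the same build, which matched 42462 of 43346 identifiers. Printed sequences came from the M21 transcripts; some M21 models differ in length from those counted. The CCN genes were matched through RefSeq synonyms. Spike-ins (96 rows) stayed out of library sizes.

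Expected counts were rounded, genes whose mean count reached 20 were kept, and TMM scaling came from edgeR 4.0.16 under R 4.3.3. Log2 ratios used a prior count of 1. With 1 library a side edgeR's quasi-likelihood test has no residual degrees of freedom, so an exact binomial test was used, with Benjamini-Hochberg adjustment at 0.05. Transcript shares were tested by Fisher's exact test in genes with 2 or more transcripts whose mean count reached 100. DESeq2 1.42.0 size factors, total count, spike-in total, posterior means, other filters and leaving out each library were alternatives. The tests were checked on simulated data. Python 3.11.15 ran the other steps, with pandas 2.3.3, scipy 1.17.1, numpy 2.4.6 and, for plots, matplotlib 3.10.9.

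Named genes were the 10 genes, the 3 most abundant of each pathway list with any at 0 in both libraries and the cluster neighbours of Dcn, Lum and Ogn, the 2 most abundant of each marker list, and transcripts averaging at least 5% of a gene. Postn-201, Postn-202, Postn-203, Cenpp, Sp7, Acan, Col2a1, Bglap and Ibsp were named after their values were seen. The genes and lists were chosen with earlier results of these data known.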

Additional observations from a re-analysis of the deposited data

How the results depend on the processing

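Of 90 log2 ratios of single genes recomputed under alternatives that use both libraries, 87 kept their sign, and 85 kept both sign and, where tested, call. Several of these alternatives, such as posterior means and other filters, barely change a ratio, so this tally does not measure robustness. Of 20 levels and 12 transcript shares, 18 and 11 moved by less than the SD of the 2 libraries. For Lum, Ogn, Mgp, Loxl1 and Eln, with 1 transcript each, the level on the longest coding transcript could not move, by construction. With the spike-in total the log2 ratios of Mgp (-0.24), Fbln1 (-0.23) and Loxl1 (-0.066) reversed and the median over the 10 genes was -0.57. Eln was called lower with the spike-in total (-0.46) and with the total gene count (-0.09). The cause was not tested. With all counts on the longest coding transcript, the mean level was 1216 TPM for Sparc and 218.5 TPM for Fbln1, by the construction of that alternative. From the posterior mean the mean share of Postn-204 was 86.2%. The count of called genes among the 10 was 9 with TMM and DESeq2 size factors and 10 with the total gene count and the spike-in total; over all genes it was 8947 with TMM and 12573 with the spike-in total. Without replicate 1 the median level was 201.7 TPM and without replicate 2 it was 227.9 TPM, and with 2 libraries such values lie within the SD by construction. No paired analysis was possible because there is 1 group. The longest-transcript level and the removal of the GC trend were chosen after seeing the data. Depth limits Kera, Epyc, Aspn and Omd, whose counts were near or under the floor of 3 counts or too few to test well.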
